A study of Homo sapiens with 6 samples.

Results

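The kidney lineage transcription factors examined here were HNF4A, PAX2, PAX8, LHX1, EMX2, WT1, SIX2 and EYA1, regulators of nephron and proximal tubule identity. They were chosen by gene name, and for each the entry on a primary chromosome was read. All 8 were listed among the 41497 named entries of the gene tables. Of the 8, 4 had enough reads for the edgeR test across genes, which covered 14860 genes, namely PAX8, PAX2, LHX1 and SIX2. The other 4, HNF4A, EMX2, WT1 and EYA1, had 3 reads or fewer over a group of libraries.

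The RNA came from HK-2 cells (HK2 in the labels), an immortalised human proximal tubular epithelial line, with the genotype given as WT. The 3 control libraries came from cells labelled Control and the 3 TGF-β1 libraries from cells exposed to TGF-β1, all at 24 hours. The aim was to see how tubular cells answer this cytokine, a driver of renal fibrosis. The cells were grown in DMEM-F12 with fetal bovine serum, while the methods of the study describe TGF-β exposure in serum-free medium. The methods give a dose for TGF-β exposure in general but do not restate it for these libraries. The medium of the controls is not given in the sources used here. All libraries came from a single cell line, and nothing states that replicates were separate cultures, so p-values measure only the spread between these samples, which may be technical. Libraries had 21.9 to 26.9 megacounts (M). The first principal component separated the groups with 69.7% of the variance, and the second, with 9.94%, set TGF-β1 replicate 1 (26.9) apart from TGF-β1 replicates 2 and 3 (-13.2 and -15.1). It also set control replicate 3 (-12.6) apart from control replicates 1 and 2 (9.41 and 4.57). Members are therefore also given without TGF-β1 replicate 1, the furthest out, and at the end without each library in turn.

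During kidney development the nephron and the collecting system are laid down by a small set of DNA-binding regulators. PAX2 and PAX8 are paired-box factors with overlapping roles in specifying the renal lineage, and LHX1, a LIM-homeodomain factor, acts with them in the nephric duct and in forming tubules. SIX2, a homeodomain factor, keeps nephron progenitors undifferentiated and works with EYA1, a cofactor of SIX2 with phosphatase activity. WT1, a zinc finger factor, acts in nephron progenitors and later in podocytes, EMX2 is a homeodomain factor of the ureteric bud epithelium, and HNF4A is a nuclear receptor of mature proximal tubule cells.

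RefSeq promoter windows on GRCh38.p14, running from 250 bases before to 50 bases after a transcription start, were matched for 6 of the 8 factors. None was available for LHX1 or EYA1. Windows are shown for PAX8 and PAX2, both called lower, and for SIX2, which was measured well enough to test and was not called. Letters are given 5′ to 3′ on the strand of the gene. Capitals mark CAGAC, the core of the Smad-binding element, or its reverse complement GTCTG.
PAX8, chr2:113278872-113279171, minus strand: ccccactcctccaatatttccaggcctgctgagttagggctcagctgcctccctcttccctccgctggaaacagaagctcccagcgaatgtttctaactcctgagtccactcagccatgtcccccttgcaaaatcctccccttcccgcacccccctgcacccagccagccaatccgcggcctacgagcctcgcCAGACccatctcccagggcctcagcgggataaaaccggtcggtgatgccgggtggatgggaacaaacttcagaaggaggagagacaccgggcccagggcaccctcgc
PAX2 upstream start, chr10:100735146-100735445, plus strand: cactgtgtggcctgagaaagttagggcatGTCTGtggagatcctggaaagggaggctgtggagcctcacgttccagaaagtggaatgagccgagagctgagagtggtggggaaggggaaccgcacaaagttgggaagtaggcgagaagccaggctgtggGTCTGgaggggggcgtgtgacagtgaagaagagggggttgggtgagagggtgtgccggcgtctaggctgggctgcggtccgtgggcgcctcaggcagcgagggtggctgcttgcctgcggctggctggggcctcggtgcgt
PAX2 downstream start, chr10:100745332-100745631, plus strand: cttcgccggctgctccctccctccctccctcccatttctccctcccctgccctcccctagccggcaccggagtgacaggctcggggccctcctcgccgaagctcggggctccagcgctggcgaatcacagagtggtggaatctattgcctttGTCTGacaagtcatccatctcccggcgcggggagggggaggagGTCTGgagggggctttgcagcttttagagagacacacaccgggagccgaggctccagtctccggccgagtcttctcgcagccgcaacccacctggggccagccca
SIX2, chr2:45009403-45009702, minus strand: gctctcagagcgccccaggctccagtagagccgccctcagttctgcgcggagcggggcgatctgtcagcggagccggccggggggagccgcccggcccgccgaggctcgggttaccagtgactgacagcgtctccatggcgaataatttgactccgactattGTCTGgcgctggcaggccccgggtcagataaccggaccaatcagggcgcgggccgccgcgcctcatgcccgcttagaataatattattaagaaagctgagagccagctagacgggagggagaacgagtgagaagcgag
CAGAC was searched on both strands and was present in 45.3% of the 35116 windows of the same length, so its presence does not set these windows apart. PAX8 held 1 match, which began 57 bases before the start, SIX2 held 1 match, and each PAX2 window held 2. The AP-1 motif TGACTCA or TGAGTCA, present in 4.95% of all windows, had no match in these 4. The PAX8 window had 62.0% GC and 13 CpG dinucleotides, those of PAX2 63.7% and 66.7% GC with 14 and 19 CpG, and that of SIX2 64.0% GC and 29 CpG, against medians of 58.7% GC and 14 CpG over all windows. The PAX8 and PAX2 starts coincided with an exon start in the tables, whereas the SIX2 start lay 193 bases inside the listed gene. A match is a run of letters and no measure of binding.

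TGF-β1 lowered PAX8 and PAX2 and raised LHX1, while SIX2 was not called. In the edgeR quasi-likelihood test, 3 of the 4 testable factors passed an adjusted p of 0.05, beside 44.3% of all genes tested (22.2% higher and 22.1% lower). Without overlap between the groups were also 3 of the 4, beside 55.6% of all genes tested. With a background this high, the count itself does not mark the factors as a group, and their sizes and directions are given singly. In bulk RNA, fewer cells expressing a gene and less RNA in each cell cannot be told apart.

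PAX8 (gene-PAX8, GRCh38 chr2:113215997-113278921, minus strand, 12 exonic blocks) was by far the most abundant. Control libraries held 5872, 6300 and 5513 of its counts, and TGF-β1 libraries 4288, 3485 and 3002. As CPM, the counts per megacount of a library after TMM scaling, the control values were 260.2, 257.5 and 234.9 and the TGF-β1 values 164.7, 144.1 and 143.3. Every TGF-β1 library lay well under the lowest control. The mean went from 250.9 ± 13.9 to 150.7 ± 12.1 CPM (SD, n = 3 each). PAX8 thus fell to 0.601 of its control level (log2 fold change -0.73 ± 0.07 SE, 95% interval -0.89 to -0.58, edgeR adjusted p 8.14e-06). It was called under every alternative, with log2 fold changes between -0.84 and -0.70, and at -0.81 without TGF-β1 replicate 1.

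PAX2 (gene-PAX2, GRCh38 chr10:100735396-100829944, plus strand, 14 exonic blocks), the close relative of PAX8, was measured on far fewer reads. Control libraries had 78, 138 and 104 counts (3.46, 5.64 and 4.43 CPM), and TGF-β1 libraries 76, 79 and 59 (2.92, 3.27 and 2.82 CPM). The groups did not overlap, but control replicate 1 lay only a little above TGF-β1 replicate 2. The mean went from 4.51 ± 1.09 to 3.001 ± 0.236 CPM (SD, n = 3 each), and the control libraries were the more scattered. PAX2 fell to 0.666 of control (log2 fold change -0.59 ± 0.18 SE, 95% interval -0.996 to -0.18), with an edgeR adjusted p of 0.0240. This call depended on single libraries. It was lost without control replicate 2 (-0.39, edgeR adjusted p = 0.124), without control replicate 3 (-0.60, adjusted p = 0.0597) and without TGF-β1 replicate 3 (-0.55, adjusted p = 0.0649), and it held without TGF-β1 replicate 1 (-0.58, adjusted p = 0.0297).

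LHX1 (gene-LHX1, GRCh38 chr17:36937475-36944612, plus strand, 5 exonic blocks) moved the other way. Control libraries had 114, 115 and 123 counts (5.05, 4.70 and 5.24 CPM), and TGF-β1 libraries 229, 189 and 155 (8.80, 7.82 and 7.401 CPM). The controls were tightly grouped and all 3 TGF-β1 libraries lay above them. The mean went from 5.00 ± 0.274 to 8.004 ± 0.716 CPM (SD, n = 3 each). LHX1 rose 1.602-fold, or by 0.68 ± 0.12 on the log2 scale (SE, 95% interval 0.42 to 0.94; edgeR adjusted p = 0.000763). Without TGF-β1 replicate 1 it was 0.60, and it was called under every alternative.

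SIX2 (gene-SIX2, GRCh38 chr2:45005182-45009645, minus strand, 2 exonic blocks) overlapped between the groups. Control libraries had 153, 142 and 115 counts (6.78, 5.80 and 4.90 CPM), and TGF-β1 libraries 217, 178 and 122 (8.33, 7.36 and 5.83 CPM). TGF-β1 replicate 3 lay within the control range, and only TGF-β1 replicates 1 and 2 were above it. The means were 5.83 ± 0.940 and 7.17 ± 1.27 CPM (SD, n = 3 each), apart by 0.30 ± 0.16 on the log2 scale (SE; edgeR adjusted p = 0.152). The 95% interval of -0.05 to 0.66 includes both no difference and a rise about as large as the 0.68 of LHX1 on chromosome 17. It does not reach the 1.02 that LHX1 had with its second entry added, as described below. SIX2 was called under no alternative, with adjusted p-values between 0.0517 and 0.407, and its log2 fold change was 0.17 without TGF-β1 replicate 1.

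**Figure D1:**
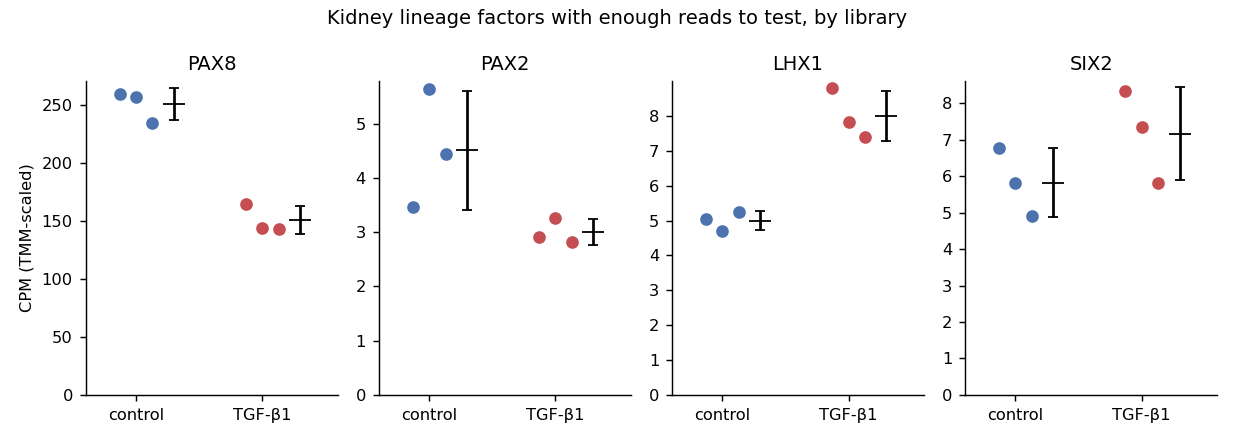
CPM of PAX8, PAX2, LHX1 and SIX2 in each library (blue points, control; red points, TGF-β1; n = 3 each), with the mean and SD in black beside the points and a linear axis from 0 for each gene. PAX8 and PAX2 were lower and LHX1 higher in all 3 TGF-β1 libraries, while the SIX2 groups overlapped.

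The remaining factors were at or near the detection limit. HNF4A (GRCh38 chr20:44355699-44434596) had 0 reads in every control library and 1, 0 and 0 reads after TGF-β1. EYA1, on chromosome 8, had 1 read in each control library and 0 in each TGF-β1 library. WT1 (chr11:32387775-32435539) and EMX2 (chr10:117542746-117549546) had 0 reads in all 6 libraries.

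The pooled depth was 67.9 M counts in control and 73.8 M after TGF-β1. A count of 0 over a pooled group therefore allows up to 3 counts, or 0.0442 CPM in control and 0.0406 CPM after TGF-β1, for counting error only. No treatment effect on HNF4A, EMX2 or WT1 was detectable at this depth. For EYA1, 3 reads against 0 gave a ratio of TGF-β1 to control of 0 with an exact 95% interval of 0 to 2.23, and the exact two-sided permutation test over libraries gave p = 0.1, the smallest that 3 libraries against 3 allow.

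In TPM, the authors' measure of level corrected for gene length, PAX8 reached 205.8 ± 8.03 in control and 113.8 ± 5.94 after TGF-β1 (SD, n = 3 each). SIX2 followed with 8.05 ± 1.155 and 9.13 ± 1.45 TPM, then LHX1 with 4.86 ± 0.318 and 7.16 ± 0.466 TPM, and PAX2 with 2.95 ± 0.728 and 1.80 ± 0.175 TPM. The order was the same in both groups, and HNF4A, EYA1, EMX2 and WT1 lay below. In control, neighbours in this order did not overlap, but after TGF-β1 the ranges of SIX2 (7.50 to 10.3 TPM) and LHX1 (6.69 to 7.62 TPM) did. PAX8 was 57.4 to 94.7 times as abundant as PAX2 per length in control libraries and 55.5 to 71.0 times after TGF-β1, ranges that overlapped.

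LHX1 carried a second entry, on an alternate contig of chromosome 17, which is an extra copy of part of the reference genome. That entry is no member by the rule, but it took 46.5%, 54.2% and 50% of the LHX1 reads in control and 50.9%, 59.2% and 69.4% after TGF-β1. It gained 237, 274 and 351 counts from the TGF-β1 libraries against 99, 136 and 123 from the controls, and edgeR gave a difference of 1.29 ± 0.23 (log2, SE) at an adjusted p of 0.00258. TGF-β1 replicate 3 thus had the fewest chromosome 17 reads of its group and the most contig reads.

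With the entries summed, LHX1 stood at 9.44, 10.3 and 10.5 CPM in control and 17.9, 19.1 and 24.2 CPM after TGF-β1. The summed rise was 2.03-fold (log2 fold change 1.02 ± 0.11 SE, edgeR adjusted p 2.42e-05), larger than the 1.602-fold of the chromosome 17 entry. Summed LHX1 was 9.78 ± 0.699 TPM in control and 18.3 ± 3.23 TPM after TGF-β1 (SD, n = 3 each), above the means of SIX2 in both groups, so the places of LHX1 and SIX2 in the order of levels depend on the treatment of the copy. Both entries moved upwards, and the size of the LHX1 rise is uncertain between them. AATF, a neighbour of LHX1, is an example of how unevenly such reads can fall, with 165, 43 and 48 contig reads in control and 928, 82 and 924 after TGF-β1 beside a single read in all on chromosome 17. It was named after its values were seen.

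**Figure D2:**
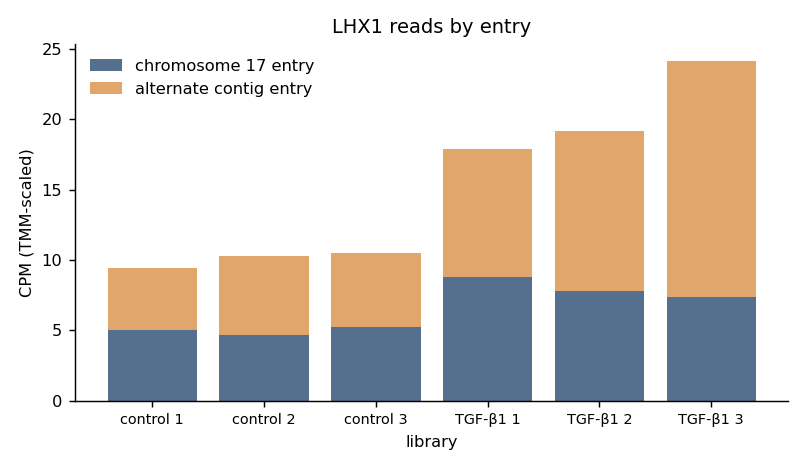
CPM of LHX1 in each of the 6 libraries, stacked by entry (blue, chromosome 17 entry; orange, alternate contig entry). The summed level was 9.44 to 10.5 CPM in control and 17.9 to 24.2 CPM after TGF-β1, and the contig entry held 69.4% of the reads of TGF-β1 replicate 3.

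Noncoding genes beside the factors were followed where they were listed. PAX8-AS1, transcribed from the strand opposite PAX8 at chr2:113235527-113267023, gave control counts of 497, 570 and 683 and TGF-β1 counts of 128, 226 and 220. The groups were far apart, and TGF-β1 replicate 1 was the lowest. Its mean went from 24.8 ± 3.77 to 8.26 ± 2.95 CPM (SD, n = 3 each), and it fell by 1.597 on the log2 scale (± 0.31 SE, edgeR adjusted p = 0.0125), or by 1.33 without TGF-β1 replicate 1. The genes share 66 exonic bases, and whether counting used the strand is not given in the sources used here, so reads in that stretch cannot be told apart. The ratio of PAX8 to PAX8-AS1 counts was 33.5, 15.4 and 13.6 in the TGF-β1 libraries, higher in each than the 11.8, 11.1 and 8.07 of the controls.

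A locus without a gene name lies 2651 bases upstream of PAX8, at chr2:113281572-113290364. Control libraries held 25, 32 and 33 of its reads and TGF-β1 libraries 18, 9 and 19, or 1.27 ± 0.152 and 0.657 ± 0.269 CPM (SD, n = 3 each) without overlap, and it was not part of the test. Among the other genes within 100 kb of PAX8 that could be tested, LOC101927400 fell (-0.78 ± 0.25 SE, edgeR adjusted p = 0.0274) and PSD4 was not called (-0.53 ± 0.23 SE, adjusted p = 0.0824). LHX1-DT, which lies 814 bases from LHX1 on the chromosome, was not called as listed (0.48 ± 0.19 SE, adjusted p = 0.0560). It too has a contig entry, with 114 reads in control and 220 after TGF-β1, and with both entries summed it was called higher (0.62 ± 0.15 SE, edgeR adjusted p = 0.00485). WT1-AS, EMX2OS, HNF4A-AS1 and SIX3-AS1 had 0 reads throughout. Of the 6 noncoding genes, 2 could be tested and 1 was called (50%), beside 44.3% of all genes tested. These 2, PAX8-AS1 (-1.60) and LHX1-DT (0.48), had log2 fold changes of opposite sign, so their median of -0.56 describes neither.

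Other genes in the families of these factors were followed as a list of 23, of which 11 could be tested. TGF-β1 raised 2 (SIX4 and PAX6) and lowered 2 (LHX4 and HNF4G), and 7 were not called, with a median log2 fold change of 0.018 beside 0.0063 over all genes. The called share was 36.4%, beside 44.3% of all genes tested. SIX4, a relative of SIX2, rose from 39.4 ± 1.94 to 53.5 ± 3.398 CPM (0.44 ± 0.07 SE, edgeR adjusted p = 0.00033). LHX4, a relative of LHX1 known from pituitary development, changed in the direction opposite to LHX1, with a log2 fold change of -0.83 ± 0.14 (SE). PAX6, known from eye and pancreas development, rose by 0.25 ± 0.07 (SE), a call that was lost with scaling by total counts only (0.14) and without control replicate 1 (edgeR adjusted p = 0.0505), control replicate 2 (0.0716) or TGF-β1 replicate 2 (0.0713).

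**Figure D3:**
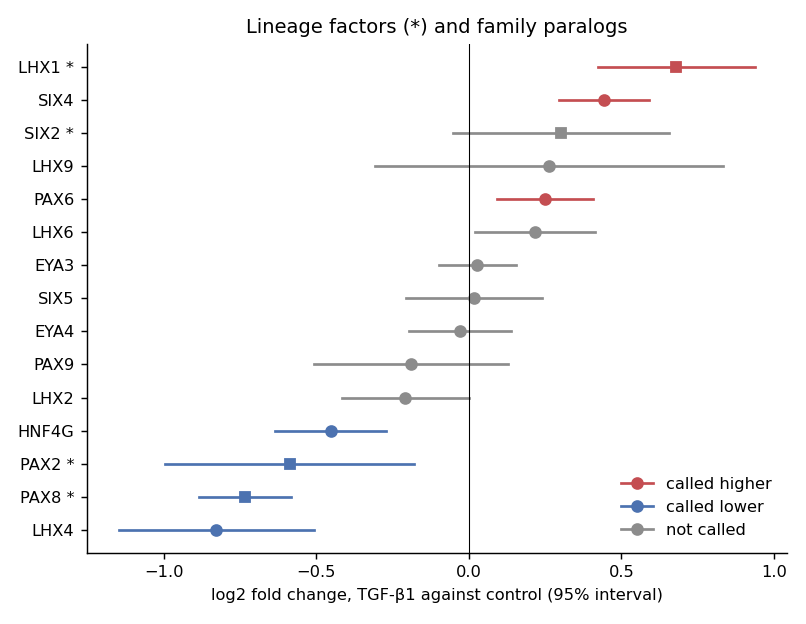
Log2 fold change (TGF-β1 against control) with its 95% interval for the 4 tested lineage factors (squares, starred) and the 11 tested paralogs of the list (circles), coloured by call. LHX1 had the highest value, PAX8 and PAX2 were among the lowest, and the intervals of the uncalled SIX2, LHX9, EYA3, SIX5, EYA4 and PAX9 spanned 0.

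Read per family, the factors made up very different shares. PAX8 supplied 92.4% ± 0.585 of the summed PAX TPM in control and 87.4% ± 0.989 after TGF-β1 (SD, n = 3 each), the sum itself being 222.8 ± 7.50 and 130.2 ± 5.93 TPM. PAX6 supplied most of the remainder (5.16% and 9.66%), PAX2 little more than 1% (1.32% and 1.39%), and 5 of the 9 PAX genes were listed at 0. The fall of the PAX total was thus nearly all PAX8.

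With the chromosome 17 entry of LHX1, the LHX total was 28.0 ± 0.138 TPM in control and 26.8 ± 0.428 after TGF-β1, within which the share of LHX1 was 17.4% ± 1.21 and 26.7% ± 2.15. LHX2, important in forebrain and hair follicle development, supplied the most on that count (41.9% and 34.9%). With both LHX1 entries, the total was 32.9 ± 0.582 and 37.9 ± 4.12 TPM (SD, n = 3 each), and the share of LHX1 went from 29.7% ± 1.76 to 48.0% ± 3.21, above the 24.8% of LHX2 after TGF-β1. The leading gene after TGF-β1 thus depends on the contig entry. TPM carries no TMM scaling, and scaling by total counts only shifted the log2 median over all genes by -0.11. The direction of the small difference in the LHX total with the chromosome 17 entry is therefore not settled. Nearly all EYA transcripts came from EYA3 (77.7% and 78.4%) and EYA4 (22.2% and 21.5%), neither of them called, and not from EYA1. HNF4G, the relative of HNF4A, supplied nearly all HNF4 transcripts, at 7.99 ± 0.232 TPM in control and 5.38 ± 0.171 after TGF-β1 (SD, n = 3 each), and it fell by 0.45 on the log2 scale (± 0.08 SE, edgeR adjusted p = 0.0011). EMX1, the relative of EMX2, had only 0.120 and 0.0127 TPM.

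**Figure D4:**
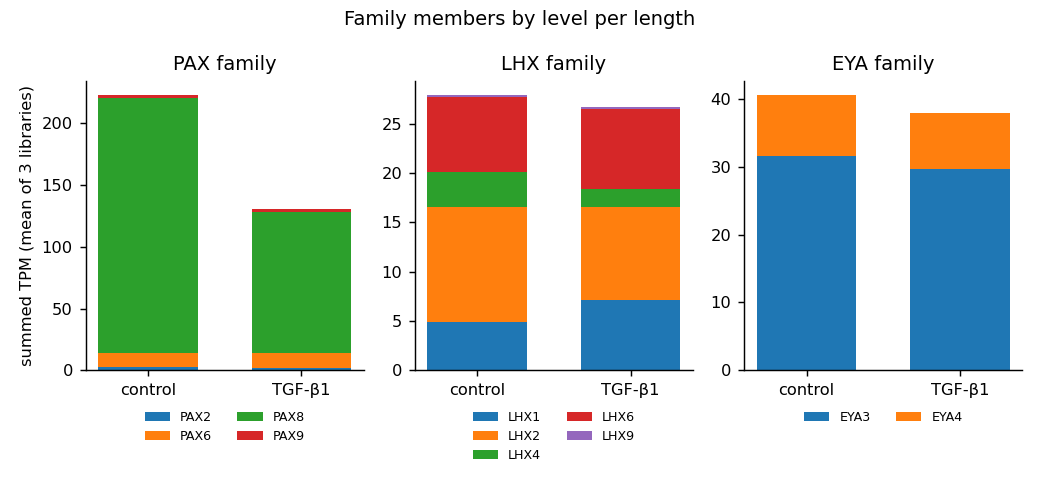
Summed TPM of the families of PAX8, LHX1 and EYA1, stacked by gene, as means of 3 libraries for each group, with genes under 0.1 TPM in both groups left out and a separate linear axis from 0 for each family. LHX1 is its chromosome 17 entry only, PAX8 made up most of the PAX bar, 92.4% in control and 87.4% after TGF-β1, and EYA3 and EYA4 made up the EYA bars.

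Binding partners and cofactors of the factors were measured as a list of 16, of which 12 could be tested. TGF-β1 raised 4 and lowered 3, and 5 were not called (median log2 fold change -0.15). The called share was 58.3%, beside 44.3% of all genes tested. LHX1 works in a complex with LDB1 and the single-stranded DNA-binding proteins of the SSBP family. SSBP3 rose from 39.1 ± 0.475 to 99.0 ± 7.15 CPM (1.34 ± 0.06 SE, edgeR adjusted p 4.3e-08) and LDB1 by 0.25 ± 0.07 (SE), while SSBP2 and SSBP4 were not called. BASP1, a corepressor of WT1, rose by 0.68 ± 0.06 (SE), and TLE4, a Groucho corepressor that PAX proteins recruit, by 0.42 ± 0.07 (SE).

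PPARGC1A, the coactivator PGC-1α that binds HNF4A and drives mitochondrial biogenesis, fell from 7.03 ± 0.572 to 0.969 ± 0.0204 CPM (-2.85 ± 0.15 SE, edgeR adjusted p 7.8e-08). NCOA2 and NCOA1, coactivators of nuclear receptors, fell by 0.35 ± 0.10 and 0.26 ± 0.08 (SE), calls that were lost in 3 and 2 of the fits without a control library. The number of partners called lower ranged from 1 (without control replicate 1 or 3) to 6 (scaling by total counts only), and was 5 without TGF-β1 replicate 1. The partners of WT1 and HNF4A were therefore measured beside factors with almost no reads of their own.

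Other transcription factors of nephron, ureteric and stromal lineages formed a list of 31, of which 18 could be tested. TGF-β1 raised 9 and lowered 2, and 7 were not called (median log2 fold change 0.23). Calls made up 61.1% of the 18, beside 44.3% of all genes tested. The number called higher was 6 with scaling by total counts only and 7 without control replicate 3. SOX9, known from injured and regenerating tubules, rose from 1.41 ± 0.184 to 12.8 ± 1.46 CPM (3.18 ± 0.14 SE, edgeR adjusted p 3.0e-08). FOXC2, a forkhead factor of mesenchyme and podocytes, rose from 3.38 ± 0.267 to 17.98 ± 1.67 CPM (2.41 ± 0.11 SE), and MEIS1, a homeodomain factor of the renal stroma, from 0.867 ± 0.0579 to 2.99 ± 0.218 CPM (1.78 ± 0.18 SE). FOXC1, HOXA11, FOXD1, IRX3, HOXD11 and SOX4 also rose.

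TCF21, a factor of podocytes and stroma, fell from 0.857 ± 0.247 to 0.285 ± 0.0521 CPM (-1.58 ± 0.35 SE, edgeR adjusted p = 0.0038), and TBX18, known from the ureteral mesenchyme, by 0.35 ± 0.08 (SE). At 0 in every library were POU3F3, IRX1, IRX2, LMX1B, TFAP2B, FOXI1 and MYCN.

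Of 16 genes known as targets of the factors, 7 could be tested, of which 1 rose, 4 fell and 2 were not called (median log2 fold change -0.50). The called share was 71.4%, beside 44.3% of all genes tested. PODXL, the sialomucin podocalyxin and a target of WT1, rose from 20.1 ± 0.423 to 183.9 ± 10.6 CPM (3.19 ± 0.06 SE, edgeR adjusted p 1.2e-10). AREG and SPRY1, both also known as WT1 targets, fell by 2.45 ± 0.13 and 1.86 ± 0.18 on the log2 scale (SE). WT1 itself had no read in any library. CDH16, the kidney cadherin and a target of PAX8, fell from 2.00 ± 0.120 to 0.819 ± 0.146 CPM (-1.27 ± 0.21 SE, edgeR adjusted p = 0.00053). The HNF4A target SERPINA1 fell by 0.50 ± 0.13 (SE) in its chromosome 14 entry. It has a second entry, not called by itself (-0.33 ± 0.23 SE, edgeR adjusted p = 0.282). With both summed, SERPINA1 fell by 0.45 ± 0.13 (SE, edgeR adjusted p = 0.0121). The other listed HNF4A targets APOB, APOC3, APOM and TTR, like WNT9B, were at 0 in every library on the primary chromosomes. Other entries of APOM held 1 read, in TGF-β1 replicate 3.

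**Figure D5:**
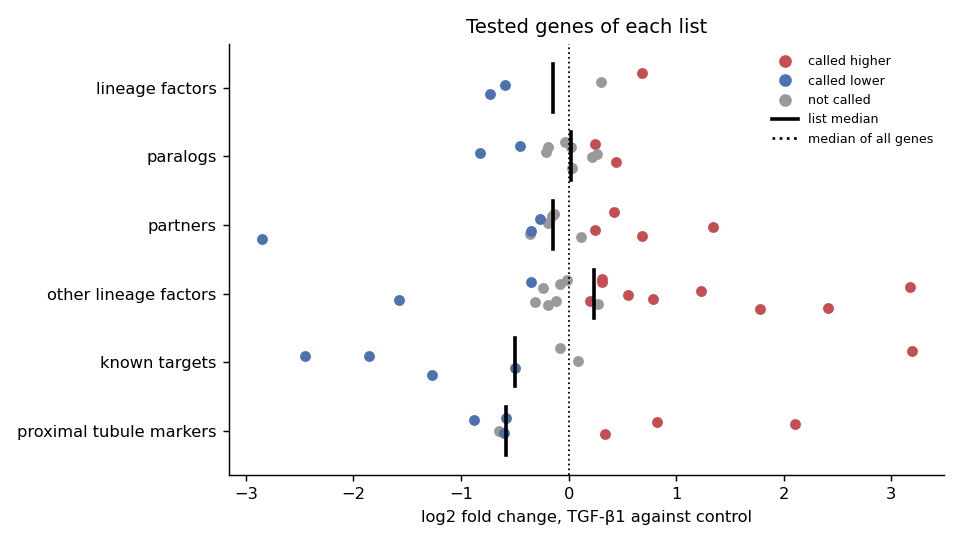
Log2 fold change (TGF-β1 against control) of each tested gene of 6 lists, coloured by call, with points spread vertically for visibility only. Black bars are list medians and the dotted line is the median of all genes (0.0063), and the widest values were those of PODXL (3.19), SOX9 (3.18) and PPARGC1A (-2.85).

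The labelled cell type was checked against its markers. Of 17 proximal tubule genes, LRP2, SLC22A6 and SLC13A1 were at 0 in every library and 7 could be tested. DPP4 (-0.88), MME (-0.60) and GGT1 (-0.58) fell, AQP1 (2.10), CUBN (0.82) and GATM (0.33) rose, and the summed level of the list was 116.4 to 129.8 CPM in control and 81.1 to 93.5 CPM after TGF-β1. GGT1 and DPP4, enzymes of the brush border, held most of its reads, while the endocytic receptor LRP2 was absent, and the median log2 fold change of the list was -0.58. Calls made up 85.7% of the 7, beside 44.3% of all genes tested. With scaling by total counts only, AQP1 alone was still called higher. CUBN rested on 34 control and 61 TGF-β1 reads, and its call was lost in 7 of 12 alternatives, with DESeq2 at an adjusted p of 0.204 and, by edgeR, without control replicate 2 (0.109) or 3 (0.0786) and without TGF-β1 replicate 1 (0.0719) or 3 (0.0965).

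Markers of other cells were followed too. Of 9 genes of other nephron segments and podocytes, UMOD, CALB1 and SCNN1G were at 0. SYNPO, the only gene tested, fell by 0.69 on the log2 scale (list sum 52.2 to 57.3 against 33.0 to 34.0 CPM). It held nearly all of that sum, with means of 53.9 CPM in control and 33.4 after TGF-β1. Of 11 fibroblast, endothelial and immune genes, CD3E was at 0, and 4 could be tested. PDGFRB rose (3.38), CD68 (-0.44, call lost without TGF-β1 replicate 2) and LUM (-0.28) fell, and CDH5 went from 62 reads in control to 0, with list sums of 156.7 to 163.1 and 118.8 to 141.4 CPM. LUM and CD68 held most of these sums. In both lists every tested gene was called (100%), beside 44.3% of all genes tested. The part of other cells in the levels of PAX8, PAX2 and LHX1 was not tested.

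The genes most like each factor over the 6 libraries were sought among 12847 genes by Pearson's r of log2 CPM, as a description. The 6 libraries share a treatment split, so genes that respond to TGF-β1 resemble each other. PAX8 was most like GADD45A and CSF1 (both r = 0.999) and LHX1 most like SELENOF and PSMD12 (both r = 0.999), with 1924 and 2114 genes at r of at least 0.9. PAX2 was most like ZNF585A (0.988) and GOLGA1 (0.984), and SIX2 most like ZNF540 (0.992) and MLLT1 (0.988), with only 141 and 171 genes at that level. The log2 fold changes were -0.54 for GADD45A and -0.50 for CSF1, 0.39 for SELENOF and 0.26 for PSMD12.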

How the data were processed

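RNA was measured in 6 libraries of HK-2 cells, 3 control and 3 TGF-β1, grouped by the treatment in their labels. Poly(A) RNA was captured with oligo(dT) and reverse transcribed from random hexamers. Per the file headers, a table of raw gene counts was deposited for each library. Beside them the authors gave TPM and FPKM, computed within each library from the gene lengths. The submitters' processing notes name CASAVA, featureCounts 2.0.1 and DESeq2 1.16.1. The aligner and the strand setting are not given in the sources used here. The 7 records broken over several lines were rejoined.

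Tests used the counts of named entries. The 598 loci without a name held 0.396% to 0.464% of counts and were left out. Low counts were removed by edgeR 4.0.16 (filterByExpr, minimum count 10), scaled with TMM and compared by the quasi-likelihood F test with robust dispersion, two-sided, with Benjamini-Hochberg adjustment over 14860 genes and a threshold of 0.05. In all 3294 genes were called higher and 3288 lower (2134 and 4590 with scaling by total counts only). The SE was the log2 fold change divided by the square root of F. CPM used the TMM-scaled library size. TPM served to compare genes and to give family totals and shares in each group. It carries no TMM scaling, so its group differences depart from those of the test. PAX8 after TGF-β1 stood at 0.553 of control in TPM, against 0.601 in the test. FPKM was not used further. The test was checked on simulated data with few changed genes and the same dispersion for all. That run checks the code and not the calls given here. Versions were Python 3.11.15, scipy 1.17.1, pandas 2.3.3, matplotlib 3.10.9, R 4.3.3, DESeq2 1.42.0 and limma 3.58.1.

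The members and lists (paralogs, partners, other lineage factors, targets, noncoding neighbours and cell markers) were chosen with earlier results of these data known. Some genes of the lists are not reported here and are not in their counts. All members were named, and of each list the called genes with the 3 largest changes in each direction. The 2 genes of highest r were named for each factor with a mean of at least 1 CPM. Genes named beyond this rule were chosen after their values were seen. The alternatives were DESeq2, RLE size factors, total counts, no filter, a mean of at least 50 counts, a replicate block, entries of a name summed, and leaving out each library. Exact intervals and floors (3 counts) cover counting error only, since PCR copies cannot be told from molecules.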

Additional observations from a re-analysis of the deposited data

Results flagged for a closer look

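The alternate contig entry of LHX1, which the choice of members left out, held 358 reads over the control libraries and 862 after TGF-β1. It drew attention as a signal outside the main measurement and above its control level. It rose by 1.29 ± 0.23 (SE) on the log2 scale, with an edgeR adjusted p of 0.00258, against 0.68 ± 0.12 for the chromosome 17 entry. Whether the reads came from the same transcripts was not tested.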

How the results depend on the processing

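PAX8 and LHX1 were called in the same direction under all 13 alternatives, and SIX2 under none. The number of factors called was 2 or 3, falling to 2 where PAX2 lost its call on leaving out replicate 2 or 3 of control or replicate 3 of TGF-β1. Without each library in turn, 5333 to 7196 genes were called (2646 to 3545 higher and 2687 to 3651 lower), PAX8 ranged from -0.81 to -0.70, PAX2 from -0.74 to -0.39, LHX1 from 0.60 to 0.73 and SIX2 from 0.17 to 0.43. Scaling by total counts only shifted the log2 median over all genes by -0.11, and the genes called higher fell to 2134 (31.7% of calls, against 50.05%). Relative to that shift the factors kept their directions. With both entries of each name summed, the LHX1 rise went from 0.68 to 1.02. Whether replicate numbers pair the libraries cannot be decided from so few libraries. Deviations of same-numbered libraries correlated at 0.111, -0.0117 and 0.0762, and not every library was most like its own number. With the replicate number as a block, 6790 genes were called against 6582, and PAX8, PAX2 and LHX1 remained called. Of the 43 genes followed through the alternatives, 34 kept their call and direction in each that included them. MEIS1, TCF21, CDH16, AQP1, CUBN, CDH5 and ZNF540 were not tested at a mean of at least 50 counts. Factors under the count filter could be tested only without it, where HNF4A (edgeR adjusted p = 0.518) and EYA1 (0.252) were not called.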
